A study of Mus musculus with 12 samples.

Results

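The genes described here are 10 members of the protein kinase A (PKA) and CREB pathway in mouse bone marrow, chosen by symbol from a table of 24421 entries: Akap12, Prkaca, Prkacb, Prkar1a, Prkar2b, Pde4b, Pde4d, Creb1, Crem and Crebbp. Each had 1 entry, and all 10 were among the 11767 genes tested, which had at least 1 FPKM in at least 3 samples. FPKM counts the fragments of a gene, scaled to transcript length and to the mapped fragments of the sample. The data are bulk RNA-seq of bone marrow of C57BL/6 mice, 12 samples in 4 groups of 3: old mice after a traumatic brain injury (Aged-TBI), their controls (Aged-CON), young injured mice (Young-TBI) and their controls (Young-CON). Marrow was collected 3 days after the injury. The labels give no age in weeks or months and no procedure for the controls. Nor do they tie samples to individual mice, so the spread behind every p-value is that between these samples and could be technical.

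Cyclic AMP (cAMP), made by adenylyl cyclases after hormones such as catecholamines bind their receptors, binds the regulatory subunits of PKA and frees the catalytic subunits. These phosphorylate many proteins, among them the transcription factor CREB, which binds cAMP response elements in promoters and recruits the CREB-binding protein as a coactivator. A-kinase anchoring proteins hold PKA at defined places in the cell, and phosphodiesterases of the PDE4 family degrade cAMP. In bone marrow, adrenergic receptors of blood cells and stromal cells act through this pathway.

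The samples held 12.3 to 15.9 M fragments, as recovered from the steps on which FPKM values lie. Of 16785 entries above 0 in at least 3 samples, 16782 lay on whole fragments, all 10 pathway genes among them. Kitl and Nlrp3 were among the 3 that did not. Cell type markers showed that the marrow of the groups differed in make-up. The summed level of 9 B cell markers averaged 137 FPKM in Aged-TBI, 179 in Aged-CON, 256 in Young-TBI and 613 in Young-CON. That of 11 erythroid markers averaged 3834 FPKM in Aged-TBI, 2262 in Aged-CON, 2047 in Young-TBI and 2363 in Young-CON, with Aged-CON 1 (3286 FPKM) and Young-CON 2 (1422 FPKM) apart from the other samples of their groups. No marker of the 9 lists was at 0 throughout a group. In bulk RNA, fewer cells of a type and less RNA per cell cannot be told apart.

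The promoter windows of 4 genes from RefSeq (GRCm38.p6, 250 bases before to 50 bases after a transcript start) are given, for each gene the window with the most response elements, because the genes stand for the different outcomes described below: Prkar1a, the most abundant of the 10; Crebbp, which fell after injury in young marrow; Pde4b, a gene that cAMP is known to induce; and Nr4a1, a known CREB target that also fell. Capitals mark the full cAMP response element TGACGTCA, which reads the same on both strands, or its short form TGACG, written CGTCA on the other strand. Each full element contains the short form on both strands.
Prkar1a, chr11:109650699-109650998, plus strand: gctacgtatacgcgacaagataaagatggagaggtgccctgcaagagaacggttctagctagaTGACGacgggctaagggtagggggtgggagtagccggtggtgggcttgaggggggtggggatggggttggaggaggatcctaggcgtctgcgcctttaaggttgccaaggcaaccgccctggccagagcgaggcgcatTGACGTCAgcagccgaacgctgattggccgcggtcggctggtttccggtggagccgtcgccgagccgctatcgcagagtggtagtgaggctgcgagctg
Crebbp, chr16:4213355-4213654, minus strand: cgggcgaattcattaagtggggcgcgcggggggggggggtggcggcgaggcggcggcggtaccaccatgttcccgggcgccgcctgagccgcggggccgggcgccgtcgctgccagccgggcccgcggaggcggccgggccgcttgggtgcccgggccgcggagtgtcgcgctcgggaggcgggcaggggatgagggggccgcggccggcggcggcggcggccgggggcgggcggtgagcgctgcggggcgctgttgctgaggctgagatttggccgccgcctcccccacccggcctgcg
Pde4b, chr4:102421305-102421604, plus strand: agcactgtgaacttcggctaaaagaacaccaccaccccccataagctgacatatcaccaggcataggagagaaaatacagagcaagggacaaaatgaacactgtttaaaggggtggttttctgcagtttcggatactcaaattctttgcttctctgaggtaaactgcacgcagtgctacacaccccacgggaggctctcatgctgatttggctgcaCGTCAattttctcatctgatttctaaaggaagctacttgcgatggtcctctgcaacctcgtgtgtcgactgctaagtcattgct
Nr4a1, chr15:101266596-101266895, plus strand: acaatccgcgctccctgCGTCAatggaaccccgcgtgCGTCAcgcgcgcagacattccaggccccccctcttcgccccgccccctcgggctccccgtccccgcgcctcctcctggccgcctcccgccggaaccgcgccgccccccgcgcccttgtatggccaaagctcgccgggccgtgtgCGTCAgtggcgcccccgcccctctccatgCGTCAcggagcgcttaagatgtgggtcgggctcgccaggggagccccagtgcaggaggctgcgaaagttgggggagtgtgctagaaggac

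Of the 10 genes, 8 matched windows in the RefSeq table by symbol, 20 windows in all; Akap12 and Crem did not. The full element stood in 2 of the 20 windows, both of Prkar1a, and in 1.79% of the 32851 windows of the table. These 2 windows overlap and hold the same element, which is thus 1 site counted in both. The short form stood in 6 of the 20 windows, of Prkar1a, Prkaca, Prkacb and Pde4b, and in 20.8% of all windows. The 2 overlapping Prkar1a windows, both among the 6, share their short forms too. The Nr4a1 window held the short form 4 times, and the Crebbp window, with a GC content of 82.0%, held neither form. These matches describe letters in these windows and are not evidence of binding.

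The genes spanned a wide range of levels. Prkar1a, a regulatory subunit of PKA, stood highest at 92.2 to 112 FPKM over the 12 samples, followed by Prkar2b, another regulatory subunit, at 37.0 to 63.7 FPKM. The catalytic subunits Prkaca and Prkacb lay side by side at 18.7 to 23.9 and 18.3 to 21.9 FPKM, and Prkaca was the higher in 9 of 12 samples, so their order did not hold beyond their spread. Creb1 (14.2 to 18.2 FPKM) stood above Crebbp (8.23 to 12.8 FPKM), and Crebbp above Pde4b (4.20 to 8.95 FPKM), in all 12 samples. Pde4d (1.96 to 2.82 FPKM) stood above Crem (1.41 to 2.19 FPKM) in all 12. Akap12 had no fixed place and ranked above Pde4b in 6 samples and above Pde4d in 6 samples, the young ones. Its highest level was 50.9 times its lowest, where that ratio was 1.19 to 2.13 for the other genes.

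**Figure D1:**
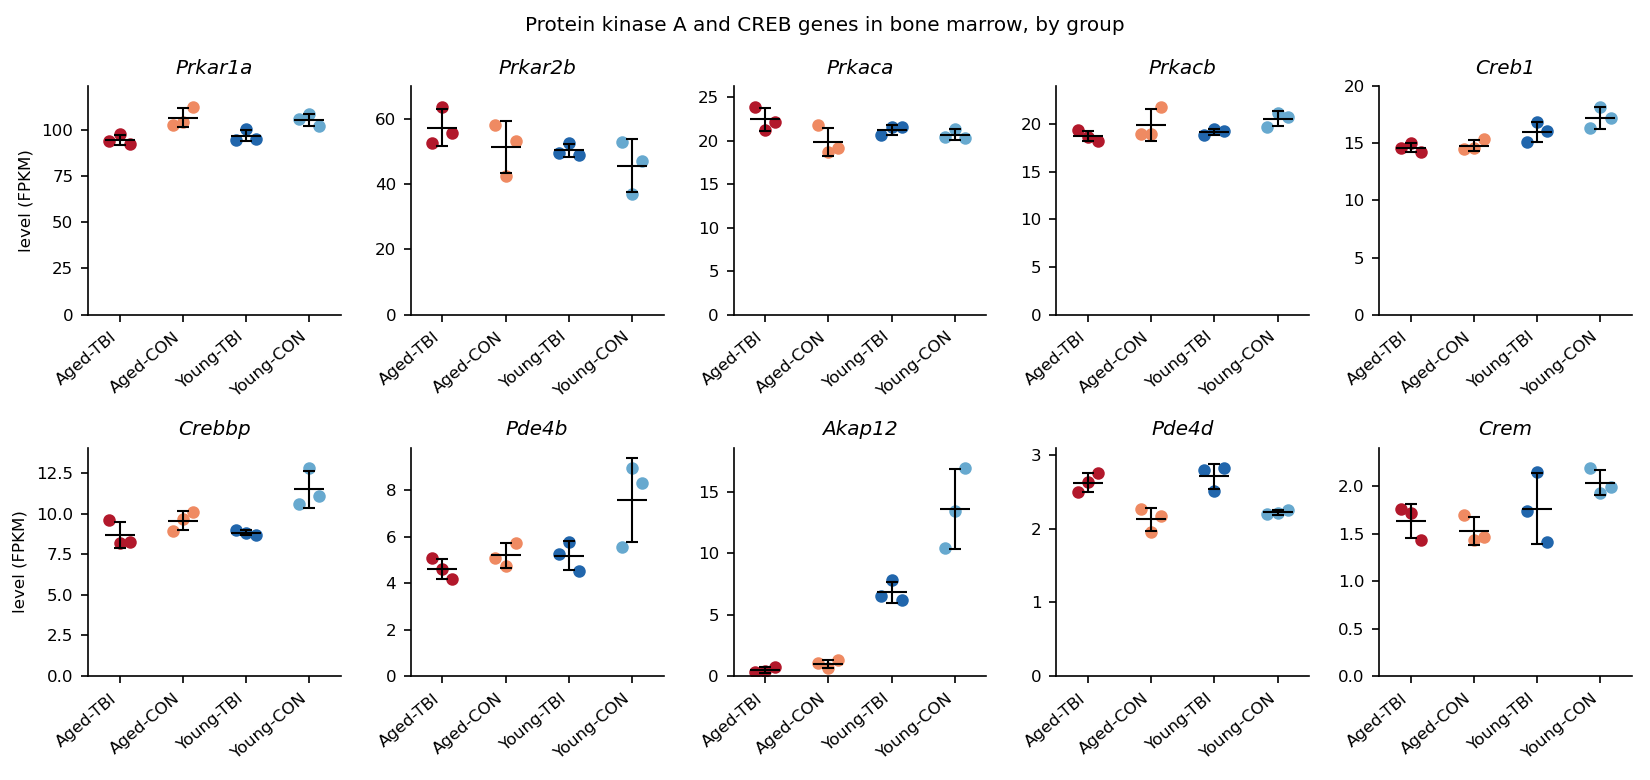
Levels of the 10 genes in FPKM (y axes, each from 0) by group, ordered by median level; points are samples, horizontal bars are means and error bars are SD (n = 3 each). Akap12 separates aged from young marrow, at 0.332 to 1.30 FPKM in the 6 aged samples and 6.21 to 16.9 FPKM in the 6 young ones, while the PKA subunits stay within narrow bands.

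Changes were tested as differences of log2(FPKM + 1) with limma, and rose or fell is used of genes with a p under 0.05 after adjustment over all 11767 genes. This scale understates the changes of genes near 1 FPKM. After injury in young marrow, Akap12 and Crebbp fell and no gene of the 10 rose, where 3.15% of all tested genes fell and 2% rose. After injury in aged marrow none of the 10 passed, where 0.263% of all genes fell and 0.0595% rose. With age, Akap12 alone fell and none rose, both in controls (4.19% of all genes fell and 0.79% rose) and after injury (6.93% fell and 2.97% rose). None of the 10 passed in the interaction, the aged injury effect minus the young one, where 0.195% of all genes passed in either direction. Before adjustment, 4 of the 10 had a p under 0.05 for injury in young marrow (20.1% of all genes), 4 for injury in aged marrow (23.9%), 5 for age without injury (19.2%), 1 for age after injury (28.6%) and 0 in the interaction (20%). The groups did not overlap for 1 gene higher and 4 lower after injury in young marrow (12.9% and 15% of all genes), 1 higher and 1 lower after injury in aged marrow (9.19% and 13%), 0 higher and 4 lower with age in controls (4.78% and 15.6%), and 1 higher and 2 lower with age after injury (13.4% and 26.6%). Of the non-overlap counts, the 2 of 4 lower genes stood above the share of all genes and the others near or below it, and no test was made of them. The median difference of the 10 was −0.11 for injury in young marrow (−0.02 over all genes), −0.05 for injury in aged marrow (−0.02), −0.13 for age without injury (−0.05) and −0.03 for age after injury (−0.05).

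**Figure D2:**
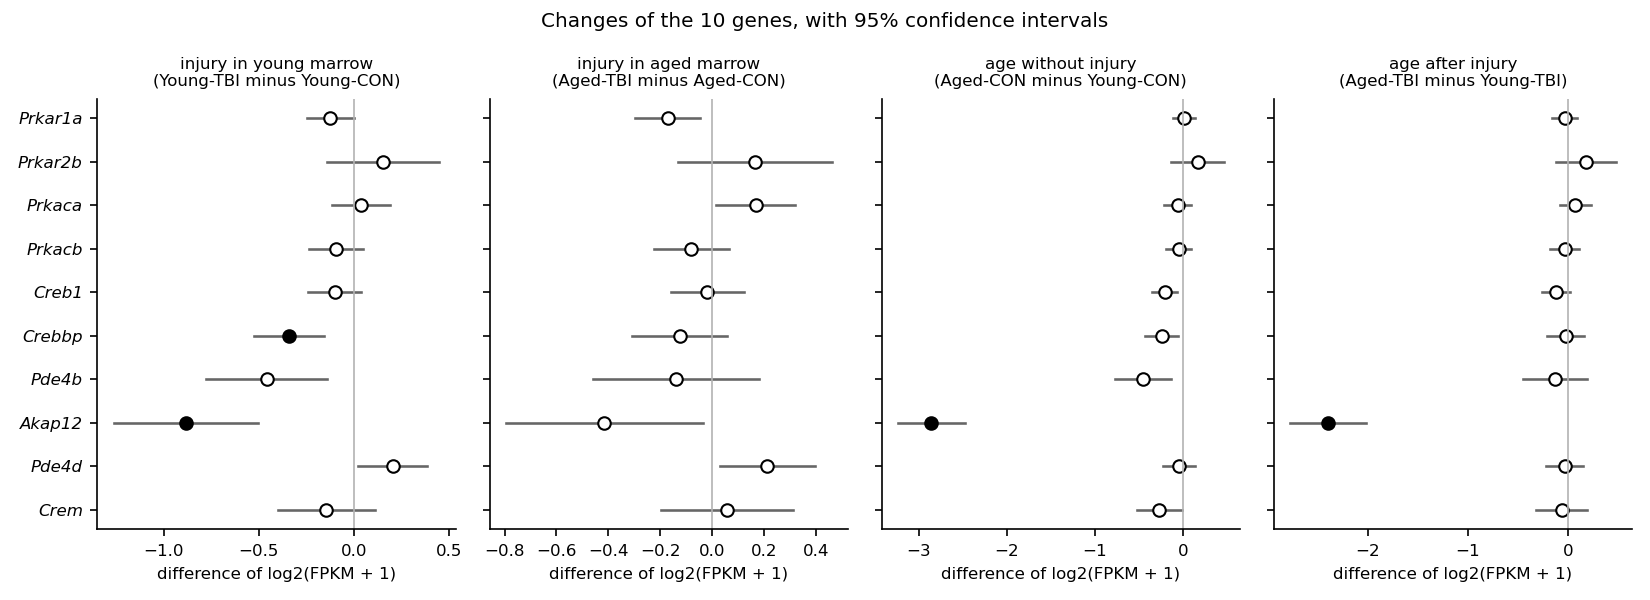
Differences of log2(FPKM + 1) (x axes, scaled separately) for the 10 genes (rows) in the 4 pairwise comparisons, with 95% confidence intervals from limma; filled points have an adjusted p under 0.05. The filled points are Akap12 and Crebbp for injury in young marrow and Akap12 alone for age, at −2.86 without injury and −2.39 after injury.

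Akap12 encodes an anchoring protein, also called gravin or SSeCKS, that holds PKA and protein kinase C at the cell membrane. It lies on GRCm38 chromosome 10, from 4266380 to 4359470 on the plus strand. Its RNA was at 0.332, 0.421 and 0.728 FPKM for Aged-TBI, at 1.02, 0.669 and 1.30 FPKM in Aged-CON, at 6.49, 7.79 and 6.21 FPKM in Young-TBI, and at 10.4, 13.5 and 16.9 FPKM in Young-CON. Every young sample stood above every aged one, and every Young-TBI sample below every Young-CON sample, while the highest Aged-TBI sample overlapped the lowest Aged-CON sample. The counts behind the lowest values were 28, 39 and 56 fragments in Aged-TBI and 100, 57 and 129 fragments in Aged-CON, against 538 to 686 in Young-TBI and 994 to 1419 in Young-CON.

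Age gave the largest difference among the 10 genes. Akap12 averaged 0.997 ± 0.315 FPKM in Aged-CON and 13.6 ± 3.25 FPKM in Young-CON (SD, n = 3 each), 13.7-fold lower in aged controls, with a log2 change of −2.86 (SE 0.17, limma adjusted p = 8.78e-06). By size this change ranked 7 of the 11767 genes. Among the aged samples only Aged-CON 1 and Aged-CON 3 reached 1 FPKM. Akap12 thus passed the low-value filter through the young groups, where it was high, and its place among the genes tested depended on them. After injury Akap12 averaged 0.494 ± 0.207 FPKM in Aged-TBI and 6.83 ± 0.844 FPKM in Young-TBI, 13.8-fold lower in aged marrow (log2 change −2.39, SE 0.17, limma adjusted p = 4.77e-05), which ranked 12. Both calls held in each of 24 alternative settings, the fit with no low-value filter among them. The log2 changes lay between −3.76 and −2.70 without injury and between −3.87 and −2.26 after it.

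Akap12 also fell after injury in young marrow, with a ratio of 0.501 between the group means and a log2 change of −0.88 (SE 0.17, limma adjusted p = 0.0153). The call was lost with a pseudocount of 0.1 FPKM (adjusted p = 0.0723) and without Young-TBI 1, Young-TBI 3, Young-CON 2 or Young-CON 3 (adjusted p = 0.0518 to 0.0753). In aged marrow the ratio of the means was 0.496, almost the same, but the log2 difference of −0.42 (95% confidence interval −0.79 to −0.04, limma adjusted p = 0.176) did not pass. The interaction was 0.47 on the log2(FPKM + 1) scale (limma adjusted p = 0.305) and −0.10 when the recovered fragments were fitted with voom (adjusted p = 0.927), so it did not pass and its sign depended on the scale.

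B cell markers were lower in the same comparisons as Akap12. All 9 fell after injury in young marrow, 8 of 9 fell with age without injury, and with age after injury 7 fell and 1, Fcer2a, rose; none passed for injury in aged marrow. Over the samples, the summed B cell markers ranged from 131 to 141 FPKM in Aged-TBI, 146 to 204 in Aged-CON, 217 to 320 in Young-TBI and 514 to 696 in Young-CON. Among all tested genes, the levels most like those of Akap12 over the 12 samples were those of Cplx2, which encodes complexin 2 (Pearson r 0.997), Gfra1, a receptor for glial cell line-derived neurotrophic factor (r 0.997), and Myl4, a myosin light chain (r 0.995), with Spearman's rho of 0.993, 0.993 and 0.986. Of the B cell markers, Ebf1, a transcription factor that sets up the B lineage (r 0.991), and Vpreb1, part of the surrogate light chain of pre-B cells (r 0.990), ranked 13 and 14, while Fcmr (r 0.514) and Fcer2a (r 0.0572), receptors of more mature B cells, ranked far lower. These r values describe the same 12 libraries in 4 groups; within groups they were 0.916, 0.916 and 0.821 for the first 3 genes, 0.946 for Ebf1 and 0.690 for Vpreb1.

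Set against the B cell sum and against Ebf1, Akap12 was lower in every aged sample than in any young one, and against Vpreb1 the ages overlapped. Per 100 FPKM of summed B cell markers, it stood at 0.359 ± 0.140 FPKM in Aged-TBI, 0.552 ± 0.127 in Aged-CON, 2.70 ± 0.280 in Young-TBI and 2.20 ± 0.207 in Young-CON (SD, n = 3 each). Its ratio to Ebf1 alone was 0.331 ± 0.0843 in Aged-TBI, 0.414 ± 0.0529 in Aged-CON, 1.05 ± 0.0603 in Young-TBI and 1.01 ± 0.0505 in Young-CON. Against Ebf1 the young groups therefore overlapped, with values up to 1.12 in Young-TBI and from 0.969 to 1.06 in Young-CON, and all 6 aged samples lay lower, between 0.265 and 0.468. Its ratio to Vpreb1 was 0.447 ± 0.0284 in Aged-TBI, 0.423 ± 0.138 in Aged-CON, 0.633 ± 0.112 in Young-TBI and 0.572 ± 0.0617 in Young-CON, with the highest Aged-CON sample at 0.535 and the lowest Young-CON sample at 0.533. In aged marrow Vpreb1 rested on only 34 fragments in Aged-TBI and 83 in Aged-CON. Stromal cells can also express Akap12. The 10 stromal and endothelial markers summed to 6.74 to 39.8 FPKM in Aged-TBI, 32.2 to 54.2 in Aged-CON, 29.3 to 48.7 in Young-TBI and 35.7 to 54.6 in Young-CON. Cxcl12 was the largest part of this sum, which can hide single markers. Of the 10, 1 fell and 0 rose in each of the 2 age comparisons. Col1a1 averaged 0.710 FPKM in Aged-TBI, 0.818 in Aged-CON, 2.22 in Young-TBI and 5.37 in Young-CON. Lepr went the other way in controls, at 2.07 FPKM in Aged-CON and 1.19 in Young-CON. Other lists moved in the same comparisons. Of 6 neutrophil progenitor markers, 6 rose after injury in young marrow, 5 rose with age in controls and 6 fell with age after injury. After injury in young marrow 5 of 8 T and natural killer cell markers fell and 1 rose, and 4 of 6 basophil and mast cell markers fell. With age after injury 4 of those 6 rose. The part of these cell types in the Akap12 result was not tested.

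**Figure D3:**
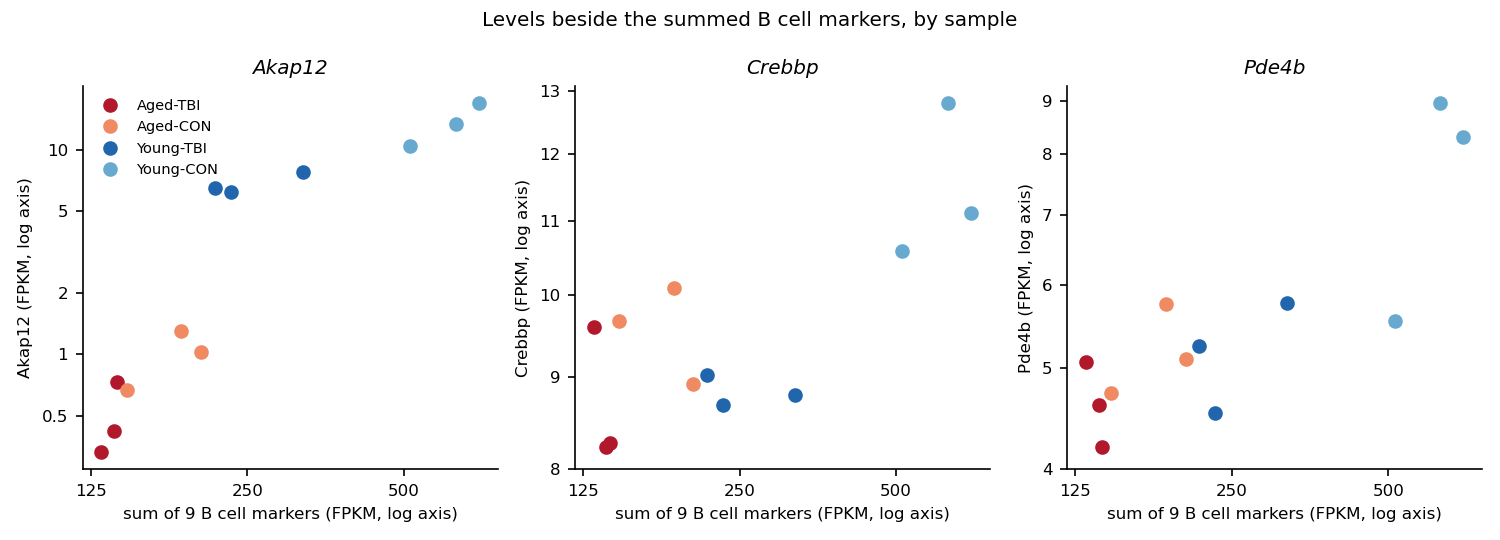
Levels of Akap12, Crebbp and Pde4b (y axes, FPKM, log) against the summed level of 9 B cell markers (x axes, FPKM, log), 1 point per sample, coloured by group. Akap12 is lowest at the lowest B cell sum (0.332 FPKM at 131 FPKM) and highest at the highest (16.9 FPKM at 696 FPKM). Akap12 is at 1.02 FPKM in Aged-CON 1 (sum 204 FPKM) and 6.49 FPKM in Young-TBI 1 (sum 217 FPKM). The sum can hide single markers. Ebf1 is at 1.85 to 3.15 FPKM in Aged-CON and 5.81 to 7.78 FPKM in Young-TBI, and Vpreb1 at 1.91 to 2.78 and 10.3 to 11.9 FPKM. The part of B cells in the difference was not tested. Crebbp and Pde4b separate from the rest mainly in Young-CON.

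The regulatory subunits hold PKA inactive until cAMP binds them. Prkar1a, which encodes the widespread type I subunit, was at 93.7, 97.6 and 92.2 FPKM in Aged-TBI and 103, 104 and 112 FPKM in Aged-CON, and at 94.7, 100.2 and 95.2 FPKM in Young-TBI and 106, 109 and 102 FPKM in Young-CON. The means were 94.5 ± 2.81 FPKM in Aged-TBI and 106.5 ± 5.19 in Aged-CON, and 96.7 ± 3.02 in Young-TBI and 105.4 ± 3.25 in Young-CON. At both ages all injured samples lay below all controls, but the difference did not pass, at −0.17 in aged marrow (limma adjusted p = 0.129) and −0.12 in young marrow (adjusted p = 0.258). Prkar2b, a type II subunit known from brain, fat and platelets, averaged 57.3 ± 5.72 FPKM in Aged-TBI, 51.3 ± 7.97 in Aged-CON, 50.4 ± 2.02 in Young-TBI and 45.7 ± 8.07 in Young-CON, with log2 differences of 0.16 in aged and 0.15 in young marrow that did not pass (adjusted p = 0.48 and 0.587). Its lowest values, 42.5 FPKM in Aged-CON 2 and 37.0 FPKM in Young-CON 2, stood below those of all other samples. With age after injury, all Aged-TBI samples lay above all Young-TBI samples for Prkar2b, at a log2 difference of 0.18 that did not pass (adjusted p = 0.422). An erythroid covariate changed the sign of this difference, to −0.15, and of that for injury in aged marrow, to −0.14. Neither passed there (limma adjusted p = 0.541 and 0.932).

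The catalytic subunits carry the kinase activity, and neither gene passed in any comparison. Prkaca averaged 22.4 ± 1.34 FPKM in Aged-TBI, 19.9 ± 1.64 in Aged-CON, 21.2 ± 0.544 in Young-TBI and 20.7 ± 0.606 in Young-CON. In aged marrow its log2 difference of 0.17 (limma adjusted p = 0.173) did not pass; without Aged-CON 1 it was 0.23 (adjusted p = 0.0196), and Prkar1a, at −0.20, passed there as well (adjusted p = 0.0232). Over all genes, leaving out Aged-CON 1 moved the number called for injury in aged marrow to 3266, against 38 with it. Aged-CON 1 had an erythroid marker sum of 3286 FPKM, against 1791 and 1708 in the other Aged-CON samples and 3712 to 3934 in Aged-TBI, and the part of this in the result was not tested. Prkacb averaged 18.8 ± 0.539 FPKM in Aged-TBI, 19.9 ± 1.66 in Aged-CON, 19.2 ± 0.332 in Young-TBI and 20.6 ± 0.765 in Young-CON, with log2 differences of −0.08 in aged and −0.09 in young marrow (adjusted p = 0.479 and 0.472). The 95% confidence intervals for injury lay between −0.24 and 0.06 for Prkacb, and between −0.12 and 0.32 for Prkaca.

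The make-up of the kinase genes can be read from shares of their summed FPKM. Prkar1a made up 59.0% of the summed level of the 4 regulatory subunit genes in Aged-TBI (57.5% to 60.4%), 64.0% in Aged-CON (60.6% to 66.8%), 61.7% in Young-TBI (61.0% to 62.1%) and 66.3% in Young-CON (63.5% to 70.4%). Injured samples had the lower share at both ages without overlap. Prkar2b made up 35.7% in Aged-TBI, 30.7% in Aged-CON, 32.1% in Young-TBI and 28.6% in Young-CON. Prkar2a held 4.41% to 6.66% over the 12 samples and Prkar1b at most 0.531%. The summed regulatory level was 3.58 to 4.25 times that of Prkaca and Prkacb together over the 12 samples. Prkaca made up 54.4% of the catalytic sum in Aged-TBI, 49.9% in Aged-CON, 52.5% in Young-TBI and 50.1% in Young-CON. These shares are descriptions and were not tested.

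**Figure D4:**
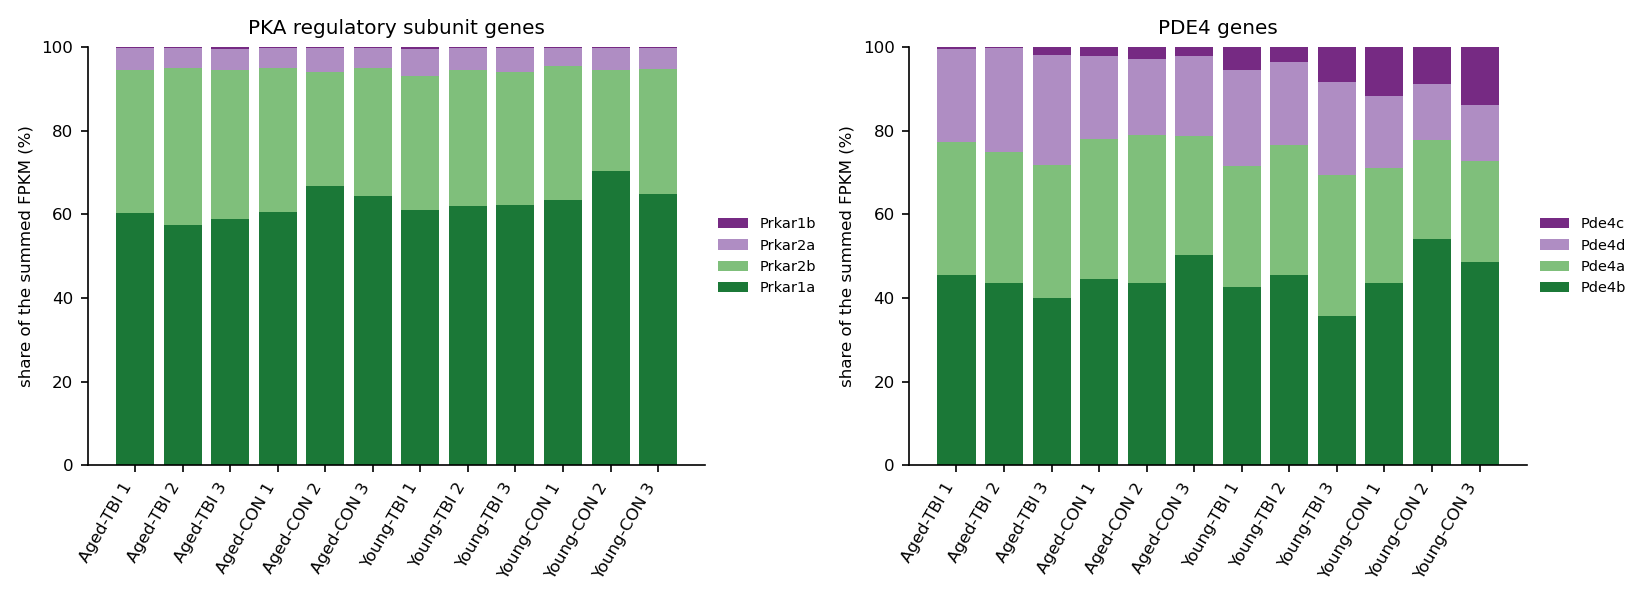
Shares (y axes, percent of the summed FPKM) of the 4 PKA regulatory subunit genes (left) and the 4 PDE4 genes (right) in each of the 12 samples; each bar is a sample. Prkar1a holds 57.5% to 70.4% of the regulatory sum, and the share of Pde4c in the PDE4 sum averages 0.853% in Aged-TBI, 2.49% in Aged-CON, 5.84% in Young-TBI and 11.6% in Young-CON.

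Phosphodiesterases of the PDE4 family end the cAMP signal, and neither of the pair described here passed the test. Pde4b, the PDE4 gene best known from inflammatory blood cells, was at 5.07, 4.61 and 4.20 FPKM in Aged-TBI and 5.10, 4.73 and 5.75 FPKM in Aged-CON, and at 5.24, 5.76 and 4.53 FPKM in Young-TBI and 5.54, 8.95 and 8.30 FPKM in Young-CON. Young-CON 2 and Young-CON 3 stood above all other samples, and Young-CON 1 lay within the range of Young-TBI. Pde4b differed by −0.46 after injury in young marrow (SE 0.15, limma adjusted p = 0.0986) and by −0.45 with age in controls (adjusted p = 0.113). Both passed with sample weights (adjusted p = 0.0252 and 0.0273) and without Young-CON 1 (adjusted p = 0.0115 and 0.00671). Over all genes, sample weights raised the calls to 1595 from 606 for injury in young marrow and to 2508 from 586 for age in controls. Young-CON 1 had the lowest B cell sum of its group (514 FPKM, against 629 and 696), whose part in the result was not tested.

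Pde4d, the other PDE4 member, was at 2.49, 2.63 and 2.75 FPKM in Aged-TBI and 2.26, 1.96 and 2.17 FPKM in Aged-CON. In young marrow it was at 2.80, 2.52 and 2.82 FPKM in Young-TBI and 2.20, 2.22 and 2.25 FPKM in Young-CON. All injured samples lay above all controls at both ages, with log2 differences of 0.21 in aged and 0.20 in young marrow that did not pass (limma adjusted p = 0.159 and 0.198). With sample weights the difference in aged marrow passed (limma adjusted p = 0.0488), as did 3557 of the 11767 genes, against 38 in the main fit. Between ages, Pde4d differed by −0.04 in controls and −0.03 after injury (adjusted p = 0.839 and 0.836).

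Among the paralogs, Pde4c was low and fell in 3 comparisons. Outside Young-CON, only Young-TBI 3 (1.05 FPKM) reached 1 FPKM, so Pde4c passed the low-value filter through Young-CON. Its calls for age in controls and for injury in young marrow are falls from that same group. It averaged 0.0903 ± 0.0987 FPKM in Aged-TBI (11 fragments in the group), 0.279 ± 0.0367 in Aged-CON (40 fragments), 0.733 ± 0.295 in Young-TBI (97 fragments) and 1.78 ± 0.516 in Young-CON (234 fragments). The log2 changes were −1.11 with age in controls (limma adjusted p = 0.00203), −0.66 with age after injury (adjusted p = 0.0314) and −0.68 after injury in young marrow (adjusted p = 0.0383). Of 24 settings, 24, 17 and 10 kept these calls. Pde4a showed 3.39 ± 0.125 FPKM in Aged-TBI, 3.65 ± 0.323 in Aged-CON, 3.93 ± 0.379 in Young-TBI and 3.84 ± 0.303 in Young-CON, with no difference that passed. The 4 PDE4 genes together summed to 10.7 ± 0.356 FPKM in Aged-TBI, 11.2 ± 0.358 in Aged-CON, 12.6 ± 0.246 in Young-TBI and 15.4 ± 2.35 in Young-CON, a description with no test. Pde4d took 24.5% of that sum in Aged-TBI, 18.9% in Aged-CON, 21.6% in Young-TBI and 14.6% in Young-CON.

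Creb1 and Crem encode transcription factors that bind cAMP response elements; some products of Crem repress instead of activate. Creb1 was at 14.2 to 15.0 FPKM in Aged-TBI, 14.5, 14.6 and 15.4 FPKM in Aged-CON, 15.1, 16.9 and 16.1 FPKM in Young-TBI and 16.3, 18.2 and 17.2 FPKM in Young-CON. All Aged-CON samples lay below all Young-CON samples, and the log2 difference of −0.21 did not pass (SE 0.06, limma adjusted p = 0.104). It passed with sample weights (adjusted p = 0.0414) and with an erythroid covariate (adjusted p = 0.0465). Those settings called 2508 and 990 of all genes, against 586 in the main fit. Crem averaged 1.64 ± 0.178 FPKM in Aged-TBI, 1.53 ± 0.145 in Aged-CON, 1.77 ± 0.373 in Young-TBI and 2.04 ± 0.134 in Young-CON, with a log2 difference of −0.27 with age in controls (adjusted p = 0.242), where the groups did not overlap. It rested on 284 to 359 fragments per group. Gm6225, a transcript of the opposite strand at a mean of 0.246 FPKM, overlaps Crem, and fragments of the pair may have been counted together.

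Crebbp encodes the CREB-binding protein, a histone acetyltransferase that CREB and many other transcription factors recruit; it lies on GRCm38 chromosome 16, from 4081328 to 4213997 on the minus strand. Its RNA was at 9.60, 8.23 and 8.27 FPKM in Aged-TBI and 8.92, 9.68 and 10.1 FPKM in Aged-CON, and at 9.03, 8.80 and 8.69 FPKM in Young-TBI and 10.6, 12.8 and 11.1 FPKM in Young-CON. The 3 Young-CON samples were the highest of all 12. Crebbp fell after injury in young marrow, to 8.84 ± 0.173 FPKM in Young-TBI, against 11.5 ± 1.16 FPKM in Young-CON (ratio 0.769, log2 change −0.34, SE 0.08, limma adjusted p = 0.0405).

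This call stood close to the threshold and was lost in 14 of the 24 settings, with adjusted p up to 0.144; without Young-CON 2 alone the change was −0.27 (adjusted p = 0.134). Under quantile normalization the change was −0.31 (adjusted p = 0.0664) and under median rescaling −0.32 (adjusted p = 0.0512), so the difference stayed close in size while the call was lost. In aged marrow Crebbp differed by −0.12 after injury (adjusted p = 0.386), and with age in controls by −0.24 (adjusted p = 0.143), with Aged-CON samples all below Young-CON samples. The genes most like Crebbp over the 12 samples were Ets1, a transcription factor of lymphoid cells (r 0.948), Zbtb2, a zinc finger repressor (r 0.932), and Hvcn1, a proton channel of B cells and phagocytes (r 0.928). With the 9 B cell markers r lay between 0.604 and 0.772, but within groups it lay between −0.30 and 0.14, where with Akap12 it lay between 0.545 and 0.946. The part of B cells in the Crebbp result was not tested. Ep300, the paralog of Crebbp, held 31.6 ± 1.03 FPKM in Aged-TBI, 33.0 ± 1.74 in Aged-CON, 32.4 ± 0.633 in Young-TBI and 33.4 ± 1.91 in Young-CON, and passed in no comparison.

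Of 84 other listed genes of the pathway, 58 were tested. After injury in young marrow 4 of the 58 fell and 0 rose, where 3.15% of all tested genes fell and 2% rose. After injury in aged marrow 3 fell and 0 rose, where 0.263% of all genes fell and 0.0595% rose. With age in controls 4 fell and 3 rose (4.19% and 0.79% of all genes), and with age after injury 2 fell and 1 rose (6.93% and 2.97%). In the interaction 2 passed, both negative, where 0.195% of all genes passed in either direction. The median difference of the 58 was −0.06 for injury in young marrow (−0.02 over all genes), −0.09 for injury in aged marrow (−0.02), −0.03 for age without injury (−0.05), −0.06 for age after injury (−0.05) and 0.00 for the interaction (0.02). Sik1 stood in 2 of the 6 lists and is counted once in these totals. The totals include Ptgs2 and Pde4c, which passed the low-value filter only through Aged-CON and Young-CON, the groups where they were high. The lists were chosen with earlier results of these data known.

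Close to the kinase, Pkig, which encodes an inhibitor of the catalytic subunits, fell with age in controls and after injury in young marrow. It was at 33.2, 38.5 and 39.4 FPKM in Aged-TBI, 36.4, 27.8 and 27.7 FPKM in Aged-CON, 36.7, 40.6 and 39.0 FPKM in Young-TBI and 50.0, 51.2 and 59.0 FPKM in Young-CON. The Young-CON samples stood above all others. Pkig fell with age in controls (log2 change −0.79, SE 0.11, limma adjusted p = 0.00115) and after injury in young marrow (−0.45, SE 0.11, adjusted p = 0.0392). After injury in aged marrow the log2 difference was 0.27 (37.0 FPKM in Aged-TBI and 30.6 FPKM in Aged-CON on average), and with age after injury it was −0.07, and neither passed (adjusted p = 0.164 and 0.742). The call for age in controls held in all 24 settings and that for injury in young marrow in 14. Of 11 other anchoring protein genes tested, 1 passed, Cbfa2t3, a corepressor that can also bind PKA, which fell with age in controls by 0.32 on the log2 scale (8.15 ± 0.529 FPKM in Aged-CON and 10.4 ± 0.352 in Young-CON, adjusted p = 0.0282), a call kept in 16 of 24 settings. Akap9, which anchors PKA at centrosomes and the Golgi, differed by −0.17 there (adjusted p = 0.247), and Akap13 by 0.03 (adjusted p = 0.838), against −2.86 for Akap12.

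Of 13 other genes of the CREB family and its coactivators, none passed for injury at either age or for age in controls. With age after injury, Atf1, a close relative of Creb1, rose by 0.29 (62.9 ± 3.11 FPKM in Aged-TBI and 51.3 ± 4.24 in Young-TBI, limma adjusted p = 0.039), and Sik3, a kinase that restrains the CREB coactivators, fell by 0.33 (9.20 ± 0.249 FPKM in Aged-TBI and 11.8 ± 0.388 in Young-TBI, adjusted p = 0.023). These calls held in 15 and 16 of the 24 settings. Among the 8 other phosphodiesterase genes, Pde7a, which degrades cAMP in lymphoid cells, fell besides Pde4c: it averaged 6.14 ± 0.113 FPKM in Aged-TBI, 6.16 ± 0.698 in Aged-CON, 6.10 ± 1.20 in Young-TBI and 9.17 ± 0.541 in Young-CON, with changes of −0.51 with age in controls and −0.53 after injury in young marrow (adjusted p = 0.0204 and 0.02), kept in 20 and 19 of 24 settings. None of 9 tested genes of cAMP synthesis and other cAMP effectors passed in any comparison.

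Of 14 known CREB targets tested beyond the members, 1 fell after injury in young marrow, where 3.15% of all genes fell: Nr4a1, an immediate early nuclear receptor, at 8.43, 6.05 and 4.03 FPKM in Young-TBI and 14.1, 12.5 and 11.3 FPKM in Young-CON (log2 change −0.97, SE 0.20, limma adjusted p = 0.0193), a call kept in 19 of 24 settings. In aged marrow 3 of the 14 fell after injury, where 0.263% of all genes fell, and the same 3 rose with age in controls, where 0.79% of all genes rose: Fos and Junb, subunits of the transcription factor AP-1, and Ptgs2, the inducible cyclooxygenase. These comparisons share the Aged-CON samples. The list of targets was chosen with earlier results of these data known, so these shares are descriptions and no test of CREB targets. Fos was at 14.6, 23.9 and 16.3 FPKM in Aged-TBI, 85.3, 109 and 77.3 FPKM in Aged-CON, 15.9, 15.1 and 19.3 FPKM in Young-TBI and 18.6, 13.8 and 22.8 FPKM in Young-CON. Aged-CON thus stood apart from the other 3 groups, and the same held for Junb, which averaged 55.1 ± 6.36 FPKM in Aged-TBI, 122 ± 19.9 in Aged-CON, 51.1 ± 6.38 in Young-TBI and 53.8 ± 2.20 in Young-CON. Fos, Junb and Ptgs2 fell after injury in aged marrow by 2.26, 1.13 and 1.16 on the log2 scale (adjusted p = 0.000744, 0.00249 and 0.00358), and with age in controls they rose by 2.25, 1.16 and 1.02 (adjusted p = 5.63e-05, 0.000159 and 0.000817). Ptgs2 was at 2.11, 1.75 and 1.35 FPKM in Aged-CON (89 to 137 fragments) and at most 0.396 FPKM elsewhere (4 to 25 fragments). It passed the low-value filter only through Aged-CON, the group where it was high, so its place among the 14 depended on that group.

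**Figure D5:**
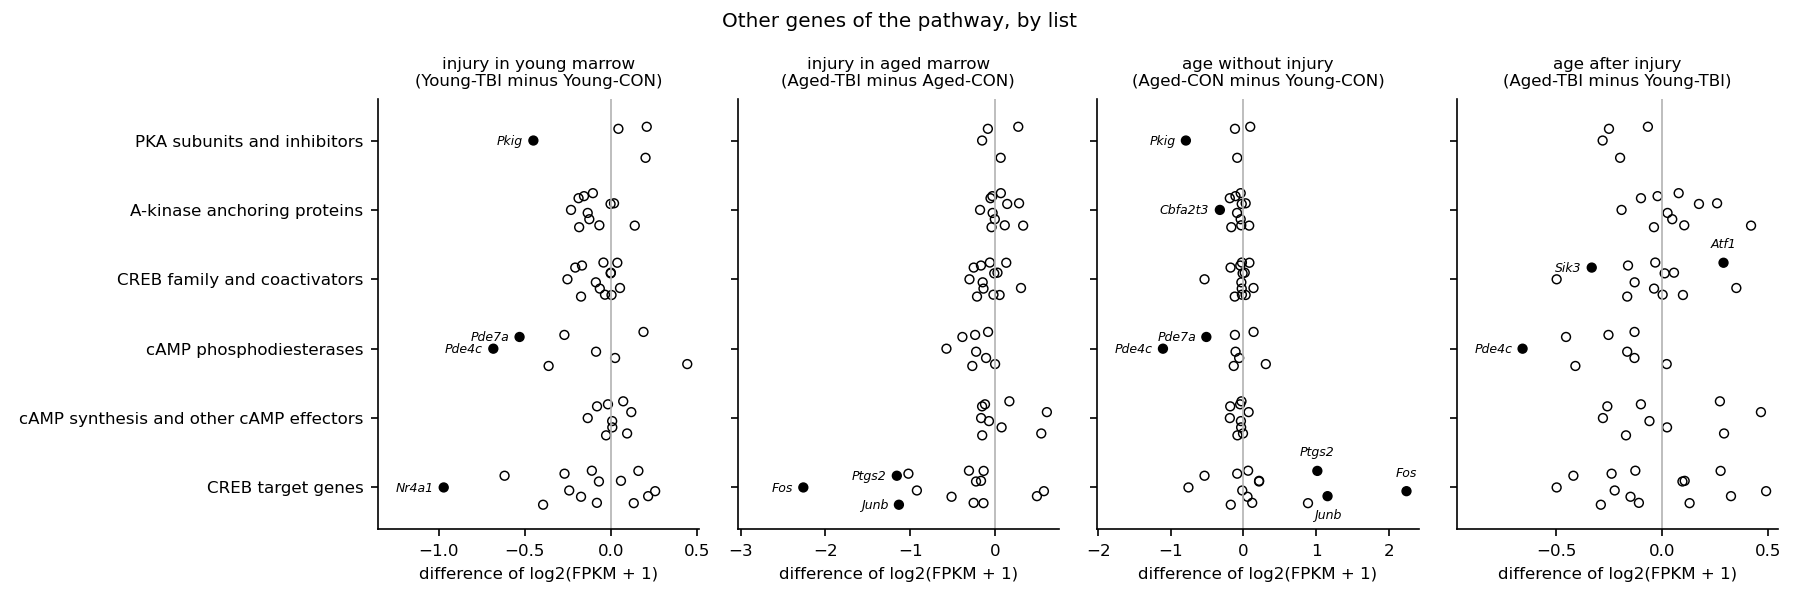
Differences of log2(FPKM + 1) (x axes, scaled separately) for the 58 other tested genes of 6 pathway lists (rows, spread vertically for legibility) in the 4 pairwise comparisons; filled, named points have an adjusted p under 0.05 in limma. Most genes lie near 0, and the points farthest out are Fos in aged marrow after injury (−2.26) and with age in controls (2.25).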

How the data were processed

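Bulk RNA of 12 mouse bone marrow samples was measured after TRIzol extraction and SMARTER mRNA-seq library preparation, per the labels' protocols. The authors deposited 1 table of FPKM values for 24421 entries. GRCm38 (mm10) and R 4.3.3 stand in the submitters' processing notes. Which aligner, counter, annotation and strand setting were used is not given in the sources used here. The 11767 genes that reached 1 FPKM in 3 or more samples were tested on log2(FPKM + 1) with limma 3.58.1: 1 mean per group, all 12 samples in 1 fit, a variance trend, two-sided tests and Benjamini-Hochberg adjustment over all tested genes. All adjusted p-values are from limma. Differences are TBI minus CON and aged minus young. Recovered fragments (whole within 0.05 for 99.97% of tested genes) gave depths and a voom fit. The members, the pathway and marker lists and the tests were chosen with earlier results of these data known. Genes named beyond the members are those of the pathway lists that passed, the 3 most like Akap12 and Crebbp, paralogs and B cell markers; Akap9 and Akap13 were chosen after their values were seen. Another entry is not reported here. The script was tested on simulated data. Promoter windows are from RefSeq on GRCm38.p6, gene positions from GENCODE on GRCm38. Figures used matplotlib 3.10.9 under Python 3.11.15.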

Additional observations from a re-analysis of the deposited data

Results flagged for a closer look

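The injury effect on Fos differed between ages by a test of the difference itself: the aged effect minus the young one was −2.15 on the log2(FPKM + 1) scale (limma adjusted p = 0.027). In aged marrow all 3 Aged-TBI samples lay below all 3 Aged-CON samples, and in young marrow the Young-TBI and Young-CON samples overlapped. For Junb the same difference was −1.05 (limma adjusted p = 0.0491). Over the alternative settings the Fos interaction passed in 12 of 23 fits and the Junb interaction in 8 of 23. None of the 10 members had such a difference.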

How the results depend on the processing

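Over 24 settings, 1157 of 1190 values of the 10 genes stayed on their side of the threshold, 14 passed anew and 19 no longer passed; 53 of 1094 values that did not pass had another sign, and no called value reversed. After injury in young marrow, where 2 genes passed, 1 passed with a pseudocount of 0.1 FPKM (Crebbp) and 1 (Akap12) with no low-value filter, quantile normalization, median rescaling, the replicate block, only the groups compared, or without Young-CON 2 and Aged-CON 1, and 3 passed with sample weights. After injury in aged marrow, where 0 passed, 3 passed with sample weights and 2 without Young-CON 2 and Aged-CON 1. Over all 11767 genes, 38 passed there in the main fit, 3557 with sample weights and 3527 without these samples. With age in controls, where 1 passed, 3 passed with sample weights and 3 with an erythroid covariate. Of all genes, 586 passed there in the main fit, 2508 with sample weights and 990 with the covariate. For injury in young marrow, 1595 of all genes passed with sample weights, against 606 in the main fit. Leaving out 1 sample at a time gave 0 to 3 genes for injury in young marrow (0 without Young-TBI 1, Young-TBI 3, Young-CON 2 or Young-CON 3, and 3 without Young-CON 1), 0 to 2 for injury in aged marrow (2 without Aged-CON 1), 1 to 2 for age in controls (2 without Young-CON 1), 1 to 1 for age after injury and 0 to 0 for the interaction. The cause of these shifts was not tested. With 1 sample left out at a time, calls over all genes ranged between 160 and 970, 11 and 3266, 280 and 1675, 314 and 2129, and 0 and 2104 in the same order.

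Correlations of deviations between same-numbered samples lay between −0.117 and 0.29. The highest, 0.29 and 0.235, were those of replicates 1 and 2 for age without injury, where replicate 3 gave −0.086. The numbers were not taken to pair samples. The replicate block left 1 gene, Akap12, for injury in young marrow and moved no other count of the 10. Akap12 in Aged-TBI rests on 28 to 56 fragments a sample, and Pde4c on fewer, which limits the precision of their fold changes. Only the groups compared gave no interaction.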

Other observations

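Kitl and Nlrp3 were among the 3 entries, of 16785 above 0 in at least 3 samples, whose FPKM values did not lie on steps of whole fragments; the other 16782 did, within 0.05 fragments. Kitl, which encodes stem cell factor, averaged 106.5 ± 13.3 FPKM in Aged-TBI, 27.8 ± 6.21 in Aged-CON, 64.2 ± 8.67 in Young-TBI and 25.7 ± 6.21 in Young-CON (SD, n = 3 each). Nlrp3, an inflammasome sensor, averaged 35.8 ± 8.91 FPKM in Aged-TBI, 10.3 ± 1.32 in Aged-CON, 16.5 ± 6.29 in Young-TBI and 8.07 in Young-CON (6.37 to 9.20). How these values were made is not given in the sources used here, and no result on the 10 genes rests on them.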
